A study of Mus musculus with 8 samples.

Results

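A set of 9 genes that regulate or mark haematopoietic stem cells (HSC) was followed as raw unique molecular identifiers (UMIs) in all 8 single-cell libraries: Hlf, Mecom, Mllt3, Mycn, Tcf15, Prdm16, Nkx2-3, Myct1 and Fgd5. These 9 genes, of 32285 in the deposited tables, were taken from a list of names with no threshold on their values, a list drawn up with earlier results of these data known, and all 9 were detected. The libraries hold lineage-negative, c-Kit+ bone marrow cells of wild-type mice, with 1 mouse per library, and the labels name no engineered allele or agent. Each age group was 1 male and 1 female. Young mice were sampled at 14 weeks, middle-aged mice at 50 weeks, the old male at 78 weeks, the old female at 79 weeks and both very old mice at 95 weeks. The 4 old and very old mice together are called older. The sort takes progenitors as well as stem cells, so HSC are a small part of each library. Library names of the very old mice belong to a different series from the other 6, and that naming series and the age of 95 weeks cannot be told apart.

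HSC divide rarely and keep their identity through a small set of transcription factors whose transcripts fall as cells commit to a lineage. Hlf encodes a PAR bZIP factor, Mecom and Prdm16 encode related PR-domain zinc finger factors, Nkx2-3 encodes a homeobox factor, and Tcf15 and Mycn encode basic helix-loop-helix factors, Mycn being a paralogue of Myc. Mllt3 (AF9) encodes a chromatin reader that links acetylated histones to transcription elongation and Dot1l. Fgd5, a guanine nucleotide exchange factor for Cdc42 and a widely used HSC reporter gene, and Myct1, a Myc target that encodes a membrane protein of endothelium and HSC, are not transcription factors. Hlf, Mecom, Mllt3 and Prdm16 are each known to help maintain HSC.

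The 9 genes lie on 8 chromosomes of GRCm38 in the GENCODE vM21 annotation, matched on the gene identifiers of the files. Hlf spans chr11:90336536-90390895 on the minus strand, Mecom chr3:29951296-30548008 on the minus strand, Mllt3 chr4:87769925-88033364 on the minus strand and Prdm16 chr4:154316125-154636873 on the minus strand. Mycn spans chr12:12936093-12941914 on the minus strand, Tcf15 chr2:152143561-152149097 on the plus strand and Nkx2-3 chr19:43612325-43615892 on the plus strand. Myct1 spans chr10:5593775-5606904 and Fgd5 chr6:91978878-92076004, both on the plus strand. Mecom overlaps 5 annotated genes on its own strand and Fgd5 overlaps 1, and reads could be split between them. No same-strand overlap was annotated for the other 7 genes.

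Upstream regions of 3 genes are shown because the results turn on them: Hlf, the 1 member that did not pass as higher in older HSC-like cells, Mllt3, which passed in all 3 age comparisons of HSC-like cells, and Myct1, which passed for older against young mice in HSC-like, MPP-like and Megakaryocyte-like cells. These classes are explained further on. Each is the 250 bases before a RefSeq transcription start on GRCm38.p6, written 5' to 3' in the direction of transcription. They are chr11:90390918-90391167 (minus strand) for Hlf, chr4:88033408-88033657 (minus strand, the more upstream of 2 starts) for Mllt3 and chr10:5593478-5593727 (plus strand) for Myct1. Capitals mark matches on either strand. The motifs searched were the GC box (GGGCGG), the box bound by NF-Y (CCAAT), the TATA box (TATAAA) and the motif bound by GATA factors (AGATAA).
Hlf: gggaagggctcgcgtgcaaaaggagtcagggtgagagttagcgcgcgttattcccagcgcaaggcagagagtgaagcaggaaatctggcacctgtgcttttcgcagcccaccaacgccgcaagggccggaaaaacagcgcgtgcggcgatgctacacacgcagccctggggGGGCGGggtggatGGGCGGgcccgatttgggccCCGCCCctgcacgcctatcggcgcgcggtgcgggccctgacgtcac
Mllt3: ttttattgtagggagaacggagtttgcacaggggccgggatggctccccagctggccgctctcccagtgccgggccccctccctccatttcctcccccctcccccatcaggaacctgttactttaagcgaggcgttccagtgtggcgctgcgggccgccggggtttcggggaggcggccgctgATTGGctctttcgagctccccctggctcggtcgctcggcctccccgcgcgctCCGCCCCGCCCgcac
Myct1: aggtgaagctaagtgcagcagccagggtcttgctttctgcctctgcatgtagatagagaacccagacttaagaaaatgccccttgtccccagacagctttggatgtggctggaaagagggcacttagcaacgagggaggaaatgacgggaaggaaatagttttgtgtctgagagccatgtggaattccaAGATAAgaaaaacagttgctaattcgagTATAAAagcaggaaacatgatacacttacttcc

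The Hlf window held 3 GC boxes and 26 CpG pairs, and the Mllt3 window held 2 overlapping GC boxes, 1 CCAAT box and 23 CpG pairs. The Myct1 window held no GC box and 3 CpG pairs, against a median of 6 CpG pairs over the 32851 windows in the table, but had 1 TATA box and 1 GATA motif. Of all windows, 32.7% held a GC box, 33.9% a CCAAT box, 12.4% a TATA box and 9.99% a GATA motif. Among the 10 windows available for 8 of the 9 genes (none for Tcf15), 7 held a GC box, 5 a CCAAT box, 1 a TATA box and 1 a GATA motif. The E-box bound by Myc family proteins (CACGTG) was in none of the 10 windows and in 6.02% of all windows. A site of PAR bZIP proteins, spelled TTACGTAA, was in none of the 10 and in 0.113% of all windows. Its variant TTACATAA was in none of the 10 and in 0.819% of all windows. These matches describe letters only.

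Barcodes with 200 genes or more were kept, which left 59136 of 59465, with 83062003 to 150134458 UMIs per library in these cells and median counts of 8505 to 14951 UMIs per cell. Of 58672 distinct barcode sequences, 462 occurred in 2 or more libraries. Cells were clustered without any of the 9 genes or the listed regulators, partners and sex-linked genes. Classes were named from marker genes and are written "-like". The HSC-like class was 1 cluster of 3246 cells (256 to 636 per mouse, 3.52 to 9.57% of cells), with 9 of 14 HSC markers such as Procr and Ly6a among its 50 leading genes. The MPP-like class, named for multipotent progenitors from genes such as Flt3 and Adgrl4, held 9234 cells, of which 3316 belonged to a cluster of low depth. The remaining 5918 cells were a cluster led by Dntt, with the lymphoid marker Satb1 also among its leading genes. Lymphoid-primed cells are therefore part of the MPP-like class.

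All 9 genes reached their highest level in HSC-like cells. There were 122117 UMIs of the 9 genes in all, and 31519 of them were in HSC-like cells. A level here is the gene's UMIs per 1000000 UMIs of the class in 1 mouse (CPM), given as the median with the range over 8 mice. The libraries count 3' ends, so these levels were not divided by gene length. In bulk sums of a class, fewer expressing cells and less RNA per cell cannot be told apart, and shares of cells are given further on.

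Hlf had the highest CPM of the 9 in HSC-like cells, 412 (338 to 555), followed by the MPP-like class at 155 (129 to 216). The ranges of those classes did not overlap, and the lowest class, Erythroid-like, had 5.39. Of all Hlf UMIs, 30.9% were in HSC-like and 35.0% in MPP-like cells, the MPP-like class being the larger. After these came 98.9 CPM in cluster 21, an unnamed cluster of 594 shallow cells, and 80.9 CPM in cluster 10, an unnamed cluster led by cell cycle genes and Dntt.

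Mecom had the same order, 146 CPM (115 to 190) in HSC-like and 49.7 CPM (36.5 to 66.7) in MPP-like cells, again without overlap. Nkx2-3 had 95.8 CPM (58.6 to 146) in HSC-like and 19.1 CPM (14.7 to 31.3) in MPP-like cells, and Prdm16 had 21.3 CPM (12.6 to 26.9) and 6.88 CPM (4.35 to 9.03). The median was 0 in Dendritic-like cells for Mecom and Nkx2-3. Fgd5 was the gene with the largest part of its UMIs in HSC-like cells, 54.7%, at 20.3 CPM (10.7 to 33.5). Next for Fgd5 was cluster 21 at 6.92 CPM. Its range of 0 to 19.5 over mice overlapped that of HSC-like cells and rests on 10 UMIs. Within each mouse HSC-like cells were above cluster 21.

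For 3 genes Megakaryocyte-like cells came next. Mycn had 91.9 CPM (67.8 to 154) in HSC-like and 58.1 CPM (42.8 to 68.4) in Megakaryocyte-like cells, and the ranges overlapped. Tcf15 had 41.8 CPM (20.3 to 64.0) and 12.2 CPM (7.30 to 20.5), with ranges that overlapped slightly, while Myct1 had 130 CPM (96.0 to 191) and 59.3 CPM (39.5 to 85.1), with ranges that did not. Within each mouse all 3 genes were higher in HSC-like than in Megakaryocyte-like cells. By UMIs, 32.6% of Mycn and 26.4% of Tcf15 were in Megakaryocyte-like cells. The Megakaryocyte-like class was named from genes such as Pf4 and Itga2b.

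Mllt3 was the exception in its distribution over lineages. It had 160 CPM (93.0 to 266) in HSC-like cells and next 49.1 CPM (43.1 to 82.3) in Erythroid-like cells, without overlap, and cluster 16, unnamed and led by cell cycle genes and Car1, had 32.1 CPM. The 13002 Erythroid-like cells held 58.3% of all Mllt3 UMIs against 15.6% in HSC-like cells. Median depth of the Erythroid-like class ran from 4953 to 35497 UMIs per cell over mice. It includes a cluster of 2534 cells with a median of 712 UMIs. Below the leading classes most neighbours had overlapping ranges. Over 14 neighbouring pairs in the order of classes, ranges over mice overlapped in 11 pairs for Hlf. For every other gene they overlapped in 13 or 14 pairs. All classes come from the same mice, and overlap of ranges does not compare classes within a mouse. In every mouse, for example, Mllt3 was higher in Erythroid-like cells than in cluster 16, though those ranges overlapped.

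**Figure D1:**
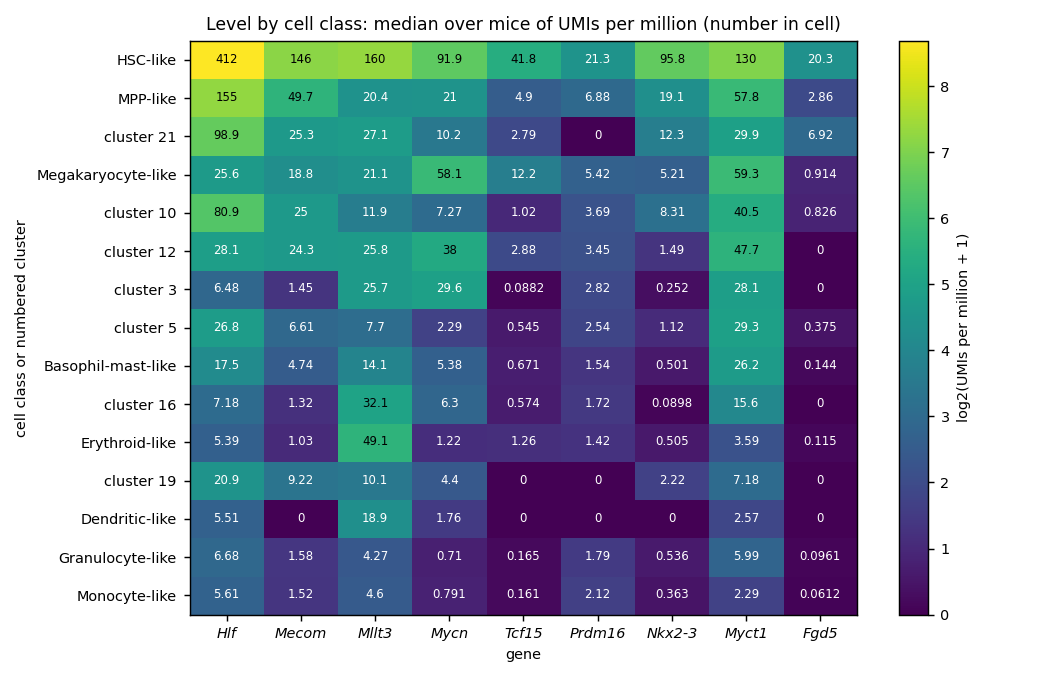
Median level over 8 mice (CPM) of each of the 9 genes (columns) in 15 cell classes or numbered clusters (rows), with colour on a log2(value + 1) scale. The HSC-like row has the highest value in every column, from 412 for Hlf to 20.3 for Fgd5, and Mllt3 has a second high value of 49.1 in Erythroid-like cells.

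The genes whose pattern over classes and mice was most like each member were found by Pearson's r of log2(CPM + 1) over 120 class-by-mouse sums, among 11013 genes. These points share libraries and depth, so r is a description. Hlf and Mecom were each other's nearest gene (r = 0.93), and for Hlf Nkx2-3 came next (0.88), then Adgrl4 (0.88). Among the 3 nearest to Mecom was also Atp2b4 (0.86), and nearest to Nkx2-3 were Gm20467 (0.89), Hlf (0.88) and Gm35551 (0.87). Meis1, a homeobox cofactor of Hox proteins, was among the 3 nearest of Mycn (0.86, after Sgce at 0.87 and before Rgs1 at 0.86) and of Myct1 (0.90, between Gimap1 at 0.91 and Adgrg1 at 0.90). Tcf15 was nearest to Ndn (0.86), Npdc1 (0.85) and Obsl1 (0.84). Fgd5 was nearest to Pde6h (0.87), Klhl4 (0.86) and Gimap1os (0.86). Prdm16 was nearest to Maged2 (0.81), Sla2 (0.79) and Hacd4 (0.79). Mllt3 had lower r with its nearest genes, Airn (0.80), Ryk (0.78) and Nfia (0.78), and r of 0.39 with both Hlf and Mecom.

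The main question of the design is how HSC differ with age. For older against young mice in HSC-like cells, 8 of the 9 genes were higher and 0 lower, and Hlf alone did not pass. Among all 11013 genes tested, 16.1% passed in either direction and 9.25% passed as higher. The 9 genes had a median log2 fold change of 0.81, against -0.03 over all genes. The test was edgeR's quasi-likelihood test on UMIs summed per mouse, with sex as a term, and a call needed a Benjamini-Hochberg adjusted p under 0.05 over all genes. Nothing in the labels beyond 1 mouse per library describes litters or sort days. Each age has 1 male and 1 female, so p-values rest on how these differ within an age beyond 1 shared sex term. The quasi-likelihood test also shares that spread across genes, so a p-value does not rest on the gene's own values alone. Mouse, library and sex-by-age differences cannot be told apart in that spread. In all 8 genes that passed, each of the 4 older mice was above both young mice. This order follows in part from passing a test on the same mice, and no share over all genes is given for it. Values per mouse below are CPM after TMM scaling.

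Tcf15, a basic helix-loop-helix factor of quiescent HSC, had 19.1 CPM in the young male and 21.2 in the young female. It had 42.7 and 33.5 in the middle-aged male and female, 53.2 and 49.0 in the old, and 67.9 and 44.4 in the very old. All 4 older mice were above all 4 younger ones. Its log2 fold change of older against young was 1.40 (SE 0.17, adjusted p = 3.28e-05), the largest of the 9 in this comparison.

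Mllt3 was close to equal in both young mice, 87.6 CPM in the male and 90.1 in the female. The middle-aged mice had 167 and 154, the old mice 268 and 206, and the very old mice 222 and 167 (male first in each pair). The young mice lay apart from all others, and the very old female, at 166.9 CPM, was just above the middle-aged male at 166.8. Its log2 fold change was 1.26 (SE 0.11, adjusted p = 1.78e-06).

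Fgd5 had 15.4 and 10.0 CPM in the young male and female, 22.9 and 17.7 in the middle-aged, 33.7 and 26.7 in the old and 30.5 and 19.2 in the very old. These levels rest on 28 to 166 UMIs per mouse. Older mice did not overlap with young ones but overlapped with the middle-aged ones. Fgd5 had a log2 fold change of 1.12 (SE 0.18, adjusted p = 5.35e-04).

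Myct1 had 105 and 90.4 CPM in the young mice, 123 and 117 in the middle-aged, 192 and 140 in the old and 197 and 176 in the very old. All older mice were above all young and middle-aged ones, and the log2 fold change was 0.85 (SE 0.11, adjusted p = 5.17e-05).

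Nkx2-3 had 81.8 and 55.3 CPM in the young mice, 107 and 89.8 in the middle-aged, 147 and 135 in the old and 95.6 and 108 in the very old. The old mice were highest and the very old mice fell within or near the middle-aged range. Over both older ages the log2 fold change was 0.81 (SE 0.13, adjusted p = 4.97e-04).

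Mecom had a smaller difference with the same shape. The young mice had 108 and 125 CPM, the middle-aged 156 and 160, the old 176 and 192 and the very old 146 and 137. The very old mice were below the middle-aged ones but above the young, and the log2 fold change was 0.47 (SE 0.10, adjusted p = 0.00367).

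Mycn had 67.3 and 63.9 CPM in the young mice, 109 and 81.0 in the middle-aged, 86.1 and 156 in the old and 113 and 105 in the very old. The old male and old female were the lowest and highest of the older mice. Mycn had a log2 fold change of 0.80 (SE 0.19, adjusted p = 0.0094). Leaving out 1 mouse moved it between 0.51, without the old female, and 1.04, without the old male, and it no longer passed without the young male (adjusted p = 0.052) or the young female (adjusted p = 0.115).

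Prdm16, at a low level, had 16.2 and 11.8 CPM in the young mice, 20.6 and 22.1 in the middle-aged, 24.2 and 26.7 in the old and 28.5 and 17.1 in the very old. The very old female was close to the young male. Prdm16 had a log2 fold change of 0.80 (SE 0.22, adjusted p = 0.0185), and the call rests on 33 to 129 UMIs per mouse. It no longer passed without the young male, the young female, the old female or the very old male, where the log2 fold change was 0.58 to 0.97.

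Hlf was the 1 gene of the 9 that did not pass. It had 523 and 430 CPM in the young mice, 342 and 399 in the middle-aged, 447 and 383 in the old and 447 and 421 in the very old. The young male was highest, no older mouse was above it, and the older mice overlapped with the young female. Hlf had a log2 fold change of -0.16 (SE 0.10, adjusted p = 0.297), which did not pass, at 986 to 2201 UMIs per mouse. Leaving out 1 mouse moved it between -0.27, without the young female, and -0.03, without the young male. Of the summed CPM of the 9 genes, Hlf made up 51.1 and 47.9% in the young mice, 31.4 and 37.2% in the middle-aged and 29.1 to 35.2% in the older mice, while the sum itself was 897 to 1023 CPM in the young and 1196 to 1427 CPM in the older mice.

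**Figure D2:**
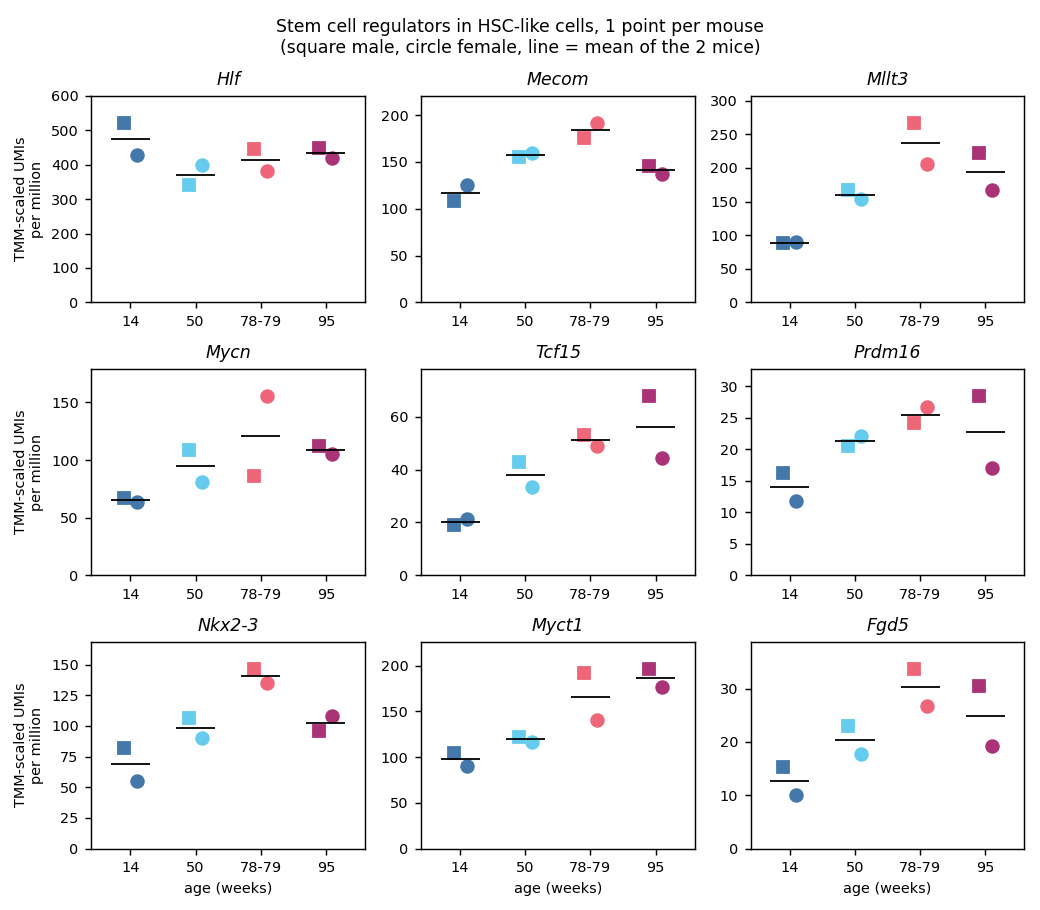
Level in HSC-like cells (CPM after TMM scaling) of the 9 genes against age, 1 point per mouse with squares for males and circles for females, and a line at the mean of both mice of an age. All older mice lie above both young mice for the 8 genes that passed. Means of older against young differ 2.66-fold for Tcf15 and 1.40-fold for Mecom. Hlf starts at 523 and 430 and lies between 383 and 447 in the older mice.

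Values of other cells and of the HSC-like class itself moved with age beside these results. In HSC-like cells 11.7 and 19.3% were cycling in the young male and female, and 9.9 and 6.0% in the middle-aged. The older mice had 0.943 to 4.34%. The class made up 3.62 and 3.52% of cells in the young, 6.16 and 4.12% in the middle-aged and 4.26 to 9.57% in the older mice. The part of this class share in the differences was not tested. The summed CPM of the 14 HSC markers in HSC-like cells was 2663 to 2750 in the young mice, 3558 to 5439 in the middle-aged and 4350 to 5009 in the older mice, and its part in the differences was not tested. All 4 macrophage markers were detected and summed to 27.4 to 29.98 CPM in the young and 2.83 to 11.7 CPM in the older mice. Only 11 of 3246 HSC-like cells had 3 or more of them, and those cells held 0.435% of the UMIs of the 9 genes. The 8 endothelial markers, of interest because Myct1 and Mecom are also transcribed in endothelium, summed to 39.6 to 40.1 CPM in the young and 37.0 to 54.5 CPM in the older mice, with the defining marker Cdh5 at 0 and no cell with 3 or more. Emcn had the most UMIs of these 8 markers, 979 over all HSC-like cells, so the sum is not a measure of endothelial cells. Of 5 stromal markers Lepr was at 0 (0.882 to 3.05 CPM in the young and 2.78 to 3.63 in the older mice), and of 4 mature lymphocyte markers Cd3g and Ms4a1 were at 0 (0 to 0.441 CPM in the young and 0 to 0.202 in the older mice).

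Without both very old mice the count was again 8 of 9 (1615 of all genes passed), and the log2 fold change of Hlf was -0.18. DESeq2 called 6 of the 9, leaving out Mycn (adjusted p = 0.144), Prdm16 (adjusted p = 0.148) and Hlf. It fell to 5 of 9 when the young male was left out (Mecom, Mycn and Prdm16 no longer passed) and to 4 of 9 when cells were clustered without Harmony (Tcf15, Mllt3, Myct1 and Fgd5 passed), where 4666 cells were HSC-like. Tcf15, Mllt3, Myct1 and Fgd5 passed as higher under all 21 alternatives run. Prdm16 passed under 13 of them. When the 300 cells with the highest share of HSC marker UMIs were taken from each library, the log2 fold change of Hlf was 0.37 and did not pass, so its direction depended on which cells were compared. HSC-like cells numbered 256 and 306 in the young male and female and 369 to 636 in the older mice. A fixed 300 cells is thus not the same part of the class in each mouse, and its part in the sign was not tested. Without cycling cells Hlf was lower in older mice and passed, with a log2 fold change of -0.29 (adjusted p = 0.0336).

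For middle-aged against young mice 3 of the 9 genes were higher and 0 lower, where 3.75% of all genes passed and 2.47% passed as higher. Tcf15 had a log2 fold change of 0.90 (SE 0.20, adjusted p = 0.0147), Mllt3 0.84 (SE 0.13, adjusted p = 0.00106) and Mecom 0.44 (SE 0.11, adjusted p = 0.0398). Nkx2-3 (0.53, adjusted p = 0.062), Fgd5 (0.68, adjusted p = 0.1), Prdm16 (0.60, adjusted p = 0.237), Mycn (0.56, adjusted p = 0.203) and Myct1 (0.30, adjusted p = 0.237) did not pass. Leaving out 1 mouse moved Mycn between 0.17 and 0.87 and Nkx2-3 between 0.32 and 0.81. Hlf had a log2 fold change of -0.36 (SE 0.11, adjusted p = 0.1). It was -0.15 without the middle-aged male and -0.57 without the middle-aged female, where it passed as lower. The count was 1 under DESeq2, 1 without the young male or the middle-aged male, and 0 when clustered without Harmony or with the 300 cells per library by HSC marker share.

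For older against middle-aged mice, which shares samples with both comparisons above, 2 of 9 were higher and 0 lower, against a background of 2.77% in either direction and 1.23% higher. They were Myct1, with a log2 fold change of 0.55 (SE 0.10, adjusted p = 0.0102), and Mllt3, with 0.42 (SE 0.10, adjusted p = 0.0422). Mecom had 0.03 (SE 0.09), and Hlf had 0.19 (SE 0.10, adjusted p = 0.312). Tcf15 (0.49, adjusted p = 0.0685), Fgd5 (0.44, adjusted p = 0.141), Nkx2-3 (0.28, adjusted p = 0.233), Mycn (0.24, adjusted p = 0.518) and Prdm16 (0.20, adjusted p = 0.631) did not pass. The count was 0 without the middle-aged male or the old male, and 1 without the old female or the very old male. It was also 0 with no sex term, 1 under DESeq2, at resolution 1.6 or without Harmony, and 5 with the 300 cells per library by HSC marker share. The background shares above are those of the main fit, so these counts are not set against all genes.

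The share of cells with a UMI was compared at equal depth. Each HSC-like cell was thinned to 4000 UMIs, which left out 15 to 68 shallower cells per mouse and kept 225 to 575. Hlf was found in 80.4 and 78.8% of the thinned cells of the young male and female, in 67.5 and 70.9% of the middle-aged and in 72.9 to 75.8% of the older mice. Every older mouse was below both young mice in this measure. Mllt3 was found in 30.2 and 29.9% of cells in the young mice, 48.1 and 40.2% in the middle-aged and 39.1 to 57.7% in the older mice. Tcf15 went from 7.56 and 6.94% in the young to 12.8 to 22.7% in the older mice, and Myct1 from 31.6 and 30.6% to 41.0 to 53.9%, without overlap. This order did not hold before thinning, where Hlf was found in 92.2 and 88.2% of cells in the young male and female, 90.1 and 82.3% in the old and 91.1 and 86.5% in the very old, so both older males were above the young female.

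For Mecom the young mice had 35.6 and 39.9% and the very old female, at 37.0%, lay between them. For Prdm16 the very old female had 4.96%, below both young mice at 7.11 and 5.21%. Fgd5 was at 4.44 and 4.51% in the young and 5.83 to 13.04% in the older mice, Nkx2-3 at 29.8 and 19.8% against 30.3 to 43.5%, and Mycn at 23.6 and 22.6% against 25.2 to 37.8%. Granulocyte-like cells, a class with low levels of these genes, were thinned to the same depth for comparison. There Hlf was found in 1.54 to 3.06% of cells, Mllt3 in 0.696 to 2.36% and Myct1 in 1.21 to 4.79%. Mecom and Prdm16 were found in up to 1.86%, Mycn in up to 0.78% and Nkx2-3 in up to 0.585%. Fgd5 was found in up to 0.418% and Tcf15 in up to 0.139%. These shares are not a measure of background. For each gene every share in HSC-like cells was above these. The median UMI count of cells before thinning was 6680 to 9904.5 per mouse in HSC-like cells and 11375.5 to 19463 in Granulocyte-like cells.

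Counted per cell, a thinned HSC-like cell held UMIs of 2.50 and 2.38 of the 9 genes on average in the young male and female. The middle-aged mice had 3.00 and 2.85, the old 3.47 and 3.35, and the very old 3.26 and 2.80. Cells with 4 or more of the 9 were 23.6 and 18.1% in the young and 28.3 to 50.4% in the older mice. The very old female was the lowest of the older mice in both measures.

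**Figure D3:**
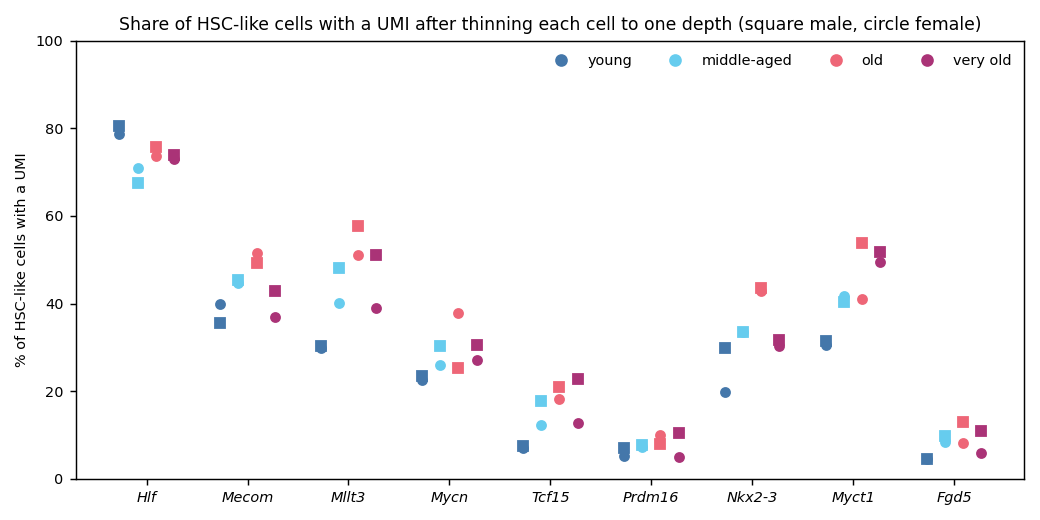
Share of HSC-like cells with at least 1 UMI of each gene after every cell was thinned to 4000 UMIs, 1 point per mouse, coloured by age group with squares for males and circles for females. Young mice are highest for Hlf (80.4 and 78.8%) and lowest for Mllt3 (30.2 and 29.9%) and Tcf15 (7.56 and 6.94%).

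The same comparison was made in the other classes. In MPP-like cells 2 of 9 genes were higher in older than in young mice and 0 lower, where 1.06% of 12210 genes passed and 0.794% passed as higher. Tcf15 had 2.41 and 1.84 CPM in the young male and female, 7.50 and 3.34 in the middle-aged, 6.93 and 5.01 in the old and 13.9 and 5.08 in the very old, a log2 fold change of 1.80 (SE 0.29, adjusted p = 0.0112). Myct1 had 50.7 and 41.8 CPM in the young, 50.3 and 48.7 in the middle-aged, 78.1 and 63.3 in the old and 82.4 and 78.2 in the very old, a log2 fold change of 0.71 (SE 0.10, adjusted p = 0.00512). Older and young mice did not overlap for either gene, and the young values of Tcf15 rest on 25 and 16 UMIs in the male and female. The count was 0 without the young male and 0 without the young female, and 2 when the cluster of low depth was left out.

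The difference between the age effects of HSC-like and MPP-like cells was tested in 1 model with mouse as a block. It passed for 3 of the 9 genes, where 5.64% of 12597 genes passed. The log2 fold change of older against young was larger in HSC-like cells by 0.79 for Mllt3 (SE 0.13, adjusted p = 2.70e-04), by 0.77 for Mycn (SE 0.17, adjusted p = 0.00442) and by 1.01 for Prdm16 (SE 0.29, adjusted p = 0.0318). In MPP-like cells alone Mllt3 had 0.49 (adjusted p = 0.176), Mycn 0.02 (adjusted p = 0.987) and Prdm16 -0.23 (adjusted p = 0.828). For Nkx2-3 the difference was 0.53 (SE 0.17, adjusted p = 0.0591) and did not pass. For Hlf it was -0.21 (SE 0.11, adjusted p = 0.337), for Mecom 0.07 (SE 0.13) and for Myct1 0.15 (SE 0.11). For Fgd5 it was 0.18 (SE 0.37) and for Tcf15 -0.39 (SE 0.34). Leaving out 1 mouse moved Fgd5 between 0.05 and 0.45 and Tcf15 between -0.70 and -0.14. The count was 3 without the very old mice and 1, Mllt3, without the young male. The difference for Prdm16 was 0.66 without the young female, and it no longer passed without either young mouse, the old female or the very old male.

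In Megakaryocyte-like cells 6 of 9 genes were higher in older mice and 0 lower, where 2.6% of 11652 genes passed and 1.91% passed as higher. Hlf was among the 6 here. It had 23.96 and 21.9 CPM in the young male and female, 24.8 and 24.4 in the middle-aged, 35.3 and 26.1 in the old and 42.7 and 35.7 in the very old, a log2 fold change of 0.58 (SE 0.11, adjusted p = 0.0108). All older mice were above all younger ones. Nkx2-3 had 2.84 and 2.77 CPM in the young, 5.18 and 5.09 in the middle-aged, 18.3 and 7.65 in the old and 9.45 and 5.36 in the very old (log2 fold change 1.73, SE 0.28, adjusted p = 0.00449). The old male was highest, and the young values rest on 20 and 23 UMIs in the male and female.

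Also in Megakaryocyte-like cells, Myct1 had a log2 fold change of 0.77 (SE 0.09, adjusted p = 1.50e-04), Mecom 0.74 (SE 0.16, adjusted p = 0.0247) and Mllt3 0.53 (SE 0.13, adjusted p = 0.0434). Fgd5 passed (adjusted p = 0.0332) on 0 and 2 UMIs in the young mice, 14 and 4 in the middle-aged, 19 and 7 in the old and 15 and 7 in the very old, too few for a fold. Mycn, at 61.2 and 55.4 CPM in the young and 51.9 to 68.2 in the older mice, had 0.05 (SE 0.11). The count of 6 fell to 3 without the very old mice (Nkx2-3, Myct1 and Fgd5), to 2 under DESeq2 (Nkx2-3 and Myct1), to 1 without the young male, and to 3 without the old male or the very old male. The background share given for this class is that of the main fit, so the counts under alternatives are not set against all genes. The difference from HSC-like cells was not tested for this class.

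In the 5 other named classes tested no gene of the 9 passed under edgeR for older against young. The background was low there as well, with 0.0487% of genes called in Basophil-mast-like, 0.0269% in Dendritic-like, 0.0678% in Monocyte-like, and 0% in both Erythroid-like and Granulocyte-like cells. At an unadjusted p under 0.05 there were 2 of 5 tested members in Basophil-mast-like, 0 of 1 in Dendritic-like, 1 of 8 in Erythroid-like, 2 of 6 in Granulocyte-like and 3 of 6 in Monocyte-like cells. Of all genes tested, 6.7, 3.52, 5.42, 3.49 and 8.28% were under that same p in these classes, in the order given. No other tool was run there. Erythroid-like cells differed in depth between mice, as given above, and the part of this in their values was not tested.

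Outside HSC-like cells every call of a member for older against young was higher. The signs of the values follow for all members, whether called or not. For Prdm16 the log2 fold change of older against young was below 0 in all 9 other classes or clusters in which it was tested, from -1.01 in Monocyte-like cells (SE 0.24, adjusted p = 0.194) and -0.97 in Erythroid-like cells (SE 0.24, adjusted p = 0.626) to -0.14 in Megakaryocyte-like cells. It passed in none of them under edgeR, and 5 had an unadjusted p under 0.05, in classes or clusters where 3.49 to 8.35% of all genes did. In MPP-like cells the value turned to 0.06 with thinned cells and 0.11 without cycling cells, and in Megakaryocyte-like cells it turned above 0 when the young female, the old female or the very old female was left out. These classes come from the same mice, so they are not independent. No share over all genes is given for such counts of signs, here or for the members below. Myct1 was above 0 in all 12 other classes or clusters tested and passed in 2, and Hlf was above 0 in 12 of 13 and passed in 1. Mecom was above 0 in 10 of 11, Nkx2-3 in 4 of 5, Tcf15 in 3 of 4 and Fgd5 in 3 of 3, each passing in 1. Mllt3 was mixed, above 0 in 8 and below 0 in 5 of 13, and passed in 1. Mycn was above 0 in 5 and below 0 in 6 of 11, down to -0.88 in Basophil-mast-like cells, and passed in none under edgeR, with 1 at an unadjusted p under 0.05.

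**Figure D4:**
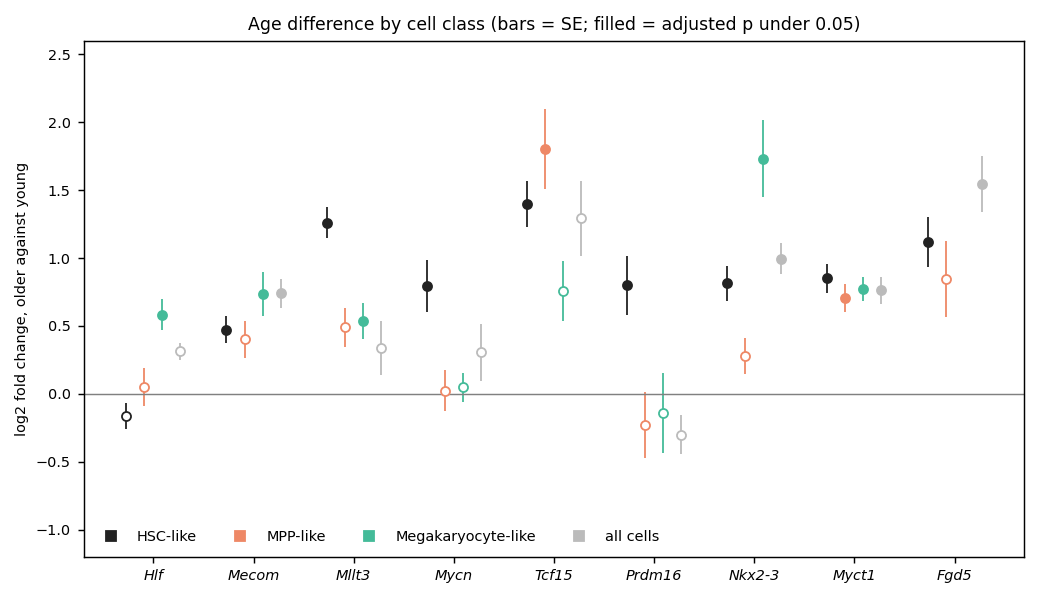
Log2 fold change of older against young mice with its SE for the 9 genes in 3 cell classes and in all cells, where filled points passed at an adjusted p under 0.05. Hlf is below 0 in HSC-like cells (-0.16) and above in Megakaryocyte-like cells (0.58), Prdm16 is above 0 in HSC-like cells (0.80) and below 0 in the other 3 sets of cells (above 0 in MPP-like cells once thinned or without cycling cells), and Fgd5 in Megakaryocyte-like cells is not drawn because of its few UMIs.

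Summed over all cells of a mouse, 4 of 9 genes were higher in older mice and 0 lower (1.21% of 15361 genes passed, 1.11% as higher). They were Fgd5 (log2 fold change 1.55, SE 0.21, adjusted p = 0.0217), Nkx2-3 (0.99, SE 0.11, adjusted p = 0.012), Myct1 (0.76, SE 0.10, adjusted p = 0.0213) and Mecom (0.74, SE 0.10, adjusted p = 0.0271). Hlf, at 41.4 and 28.8 CPM in the young, 56.8 and 42.3 in the old and 44.4 and 31.8 in the very old mice, had 0.31 (SE 0.06, adjusted p = 0.0796). These sums move with the share of HSC-like cells, which was 3.52 to 9.57% of cells per mouse, and so mix cell number with level. The count was 0 without the young male and 0 with no sex term or with age in weeks, and 1 without either middle-aged mouse or the old female.

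In HSC-like cells the difference between males and females in the older against young effect passed for 0 of the 9 genes in edgeR, with 0 at an unadjusted p under 0.05, where 0.0182% of genes passed. The differences ranged from -0.58 for Nkx2-3 (SE 0.34) to 0.52 for Tcf15 (SE 0.36). Each sex had 1 young mouse, so each sex's age effect rests on a single young library and the spread is taken from the older mice of each sex, and the test says little about a difference between the sexes.

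Cell-to-cell variability was measured as the variance of log-normalised values over its trend on the mean, in HSC-like cells thinned to 4000 UMIs. Of the 9 genes 7 were found in 10% or more of cells and were tested, Fgd5 (8.39%) and Prdm16 (8.29%) being too rare. None of the 7 differed between older and young mice in limma (adjusted p under 0.05 and a log2 difference over 0.1), where 0.735% of 4626 genes passed. Only Mecom had an unadjusted p under 0.05, with a mean of 0.16 in the young and 0.08 in the older mice, a log2 difference of -0.08 (SE 0.03, adjusted p = 0.554). The log2 differences of the other 6 lay between -0.05 for Hlf and 0.07 for Mllt3. On simulated cells of this size, 26.2% of genes given a 4-fold change in overdispersion, the spread beyond counting error, were recovered. The simulated mice had no differences between mice beyond the drawing of cells, so recovery in real mice can be lower. A 4-fold change in overdispersion is a smaller change in the variance itself, and changes of that kind can be missed.

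Other regulators of HSC and relatives of the 9 genes were read from lists of 32 and 30 genes. Among 31 tested regulators, 9 were higher and 1 lower (32.3%) in older HSC-like cells, with a median log2 fold change of 0.22 against -0.03 over all genes and the background of 16.1% given above. Among those with the largest rise were Hoxb5, a homeobox gene used as an HSC reporter (2.46, SE 0.32, adjusted p = 7.88e-05), Pbx3, a cofactor of Hox and Meis proteins (1.54, SE 0.18, adjusted p = 2.49e-05), Hoxb3 (1.02, SE 0.26) and Gata2 (0.96, SE 0.10, adjusted p = 1.36e-05). Pbx3 had 10.8 and 15.8 CPM in the young male and female, 32.1 and 28.3 in the middle-aged, and 36.1 to 42.8 CPM in the older mice. Ikzf2 (Helios) was the 1 regulator that fell, by 0.75 on the log2 scale (SE 0.14, adjusted p = 0.00123).

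Among 26 tested partners and relatives, 1 was higher and 3 lower (15.4%), a share close to the 16.1% of all genes, with a median of 0.05, so the genes named here are values of single genes and not a result about the list. Id2, an inhibitor of basic helix-loop-helix factors, was higher (1.80, SE 0.28, adjusted p = 3.19e-04). Myc was lower by a log2 fold change of -0.90 (SE 0.18, adjusted p = 0.00222) while its paralogue Mycn was higher. Myc had 105 and 110 CPM in the young male and female, 48.0 and 110 in the middle-aged, 35.7 and 84.5 in the old and 46.2 and 77.3 in the very old, so the female of each later age was above the male. Mxd4, a Max partner that opposes Myc, had -0.48 (SE 0.11, adjusted p = 0.00492), and Ctbp1, a corepressor bound by Prdm16 and Mecom, had -0.35 (SE 0.10, adjusted p = 0.0235).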

How the data were processed

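The authors deposited raw counts: UMIs per gene and cell barcode for each library, made with Cell Ranger (6.0.0 in the matrix headers) on mm10. No normalization had been applied. Totals were 83062003 to 150135029 UMIs per library over all barcodes, so that low genes such as Fgd5 and Prdm16 carry the most counting error. From these counts, barcodes with 200 genes or more were kept, log-normalised and clustered with scanpy 1.11.5 and leidenalg 0.10.2 (2000 variable genes, 30 principal components, Harmony over libraries, 20 neighbours, resolution 0.8), leaving the 9 genes and the listed regulators and partners out of clustering and naming. Of 27 clusters, 8 stayed unnamed. Doublets were not removed. Scrublet marked under 0.5% of cells in 4 libraries and so did not work there, and 2168 high-scoring cells were left out as an alternative.

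UMIs were summed per mouse and class. edgeR 4.0.16 (R 4.3.3) fitted its quasi-likelihood test to all 8 mice with age group and sex, after filterByExpr and TMM scaling, and p-values were adjusted by Benjamini-Hochberg over all genes tested, with calls at an adjusted p under 0.05. Adjusted p-values are edgeR's unless DESeq2 1.42.0 or limma 3.58.1 is named. Variability was tested with limma. In simulated counts on 10832 genes for older against young HSC-like cells, edgeR recovered 75.2% of genes changed by 1 and 99% of genes changed by 2 on the log2 scale, with 9 false calls. The 9 genes, the gene lists and the markers were chosen with earlier results of these data known. All 9 genes are named throughout. Of the listed genes, those that passed for older against young in HSC-like cells are named, at most 5 in each direction. The 3 genes nearest to each member by r are named too. Some genes that these rules would name are not reported here. Alternatives changed the scaling, filter, test, cells, clustering and mice. The fits that leave out the shallow MPP-like cluster, and all alternatives for Megakaryocyte-like cells, were chosen after seeing the data.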

Additional observations from a re-analysis of the deposited data

Results flagged for a closer look

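For 3 genes the difference between older and young mice itself differed between HSC-like and MPP-like cells (edgeR, 1 model with mouse as a block). The log2 fold change was larger in HSC-like cells by 0.7918 for Mllt3, by 0.7723 for Mycn and by 1.007 for Prdm16. Without the young male the difference passed for Mllt3 only. The summed HSC markers of HSC-like cells also moved with age, and their part in these differences was not tested. In 36 groups of 4 older mice, examined with Dixon's test for single mice far from the others, 0 stood out, where chance marks about 1 in 20. The groups hold the same 4 mice, of both sexes and both older ages. They are not independent, and 0 does not show that no mouse stands apart.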

How the results depend on the processing

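Counts are members called, and the shares of all genes given above belong to the main fits. Counts under alternatives, here and above, are not set against all genes unless all genes called are given. A change in such a count cannot be told from a change in calls over all genes. In HSC-like cells older against young gave 8, 4 without Harmony and 5 to 8 leaving out 1 mouse. All genes called fell from 1769 to 712 under DESeq2, 658 without the young male and 521 without Harmony. Hlf turned to 0.37 with 300 cells by HSC marker share. Middle-aged against young gave 3, 5 with no filter, 1 under DESeq2, 0 without Harmony, 0 with the 300 cells and 1 to 4 leaving out 1 mouse. Older against middle-aged gave 2, 0 with no sex term, 1 under DESeq2, 1 at resolution 1.6, 1 without Harmony, 5 with the 300 cells and 0 to 3 leaving out 1 mouse. There the ranges leaving out 1 mouse were -0.0072 to 0.405 for Hlf, -0.0127 to 0.0876 for Mecom (-0.0443 thinned), -0.0762 to 0.6322 for Mycn and -0.0239 to 0.3712 for Prdm16.

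In MPP-like cells the count of 2 became 1 with no sex term, 0 without Harmony and 0 to 2 leaving out 1 mouse (3 with no filter, where all genes called rose from 129 to 492). Hlf was -0.5087 without Harmony, -0.0336 without cycling cells and -0.0716 to 0.1694 leaving out 1 mouse. Mycn was -0.0042 with no filter, -0.0706 without the very old mice, -0.0184 in cells of 1000 genes or more, -0.3205 without Harmony, -0.0383 thinned, -0.0378 without the shallow cluster and -0.1421 to 0.2029 leaving out 1 mouse. Prdm16 was 0.1113 without cycling cells, 0.064 thinned and -0.6295 to 0.1681 leaving out 1 mouse. Nkx2-3 was -0.061 without Harmony.

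In all cells the count of 4 became 0 with no sex term, 0 with age in weeks and 0 to 5 leaving out 1 mouse (Mllt3 -0.054 to 0.7825). The difference between classes gave 3, and 1 to 4 leaving out 1 mouse (Mecom -0.0508 to 0.1414), with Fgd5 at -0.0606 without the very old mice. In Megakaryocyte-like cells 6 became 2 under DESeq2, 3 without the very old mice (Mycn -0.0898) and 1 to 6 leaving out 1 mouse (Mycn -0.1035 to 0.1994, Prdm16 -0.5562 to 0.3512). For variability Hlf was 0.0063 at 5% detection, 0.0386 without Harmony and 0.0583 without cycling cells, and Mecom 0.0398 unthinned and 0.0081 without Harmony, with 0 called throughout. Where the changes above are not set by fewer mice or genes, the cause was not tested.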
